A study of Sus scrofa with 21 samples.

Results

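Genes of the extracellular matrix and of the enzymes that cut it were followed in whole blood of DD and LW pigs of 60 days of age. They comprise collagens, laminins, fibronectin, fibrillins, fibulins, SPARC proteins, small proteoglycans, lysyl oxidases, TGF-beta ligands, receptors and latent binding proteins, and the MMP, ADAM, ADAMTS and TIMP families. They were chosen by gene name in the scanner files, which gave 113 genes with 238 probes out of 47027 names with 60305 probes. COL16A1, MMP8 and MMP9 were left out by the same rule. DD pigs are SLAdd minipigs, an inbred line homozygous at the SLA locus, the pig's major histocompatibility complex, and LW pigs are commercial Large White pigs that served as controls. Both received the same standard diet. RNA of 10 DD pigs from 5 litters and of 11 LW pigs from 6 litters was hybridized, with 1 array per pig, on 3 chips that each carried both breeds. The DD group is therefore a single inbred herd, and litter mates share a sow. Each pig is a biological replicate within its litter, and litters lie within breeds. Precision of the breed comparison is thus limited by the number of litters as well as by the number of arrays.

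Collagens are built from chains in which glycine returns at a fixed step. Fibrillar collagens form the ropes of connective tissue, whereas network collagens form basement membranes, beaded filaments and anchoring structures. Laminins fill basement membranes beside collagen IV, and fibrillins carry latent TGF-beta through its binding proteins. MMPs cut most matrix proteins, ADAMs mainly release membrane proteins from cells, ADAMTSs trim procollagens and proteoglycans, and TIMPs block them. Blood holds few cells that build such a matrix. Platelets and monocytes are its known sources of TGFB1, versican and TIMPs. In whole blood, fewer cells of a type and less RNA per cell cannot be told apart.

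The array reads each gene through probes of 60 bases, and the collagen repeat is visible in several of them. The repeat was searched as GGN, a glycine codon, at steps of 9 bases and at least 5 times in a row, on both strands. It was found in 25 of all 60305 probes (0.0415%), and 9 of these were among the 79 collagen probes studied here. The probes of 6 collagens are shown with the glycine codons in capitals, since the results return to them. In COL11A1 and COL9A1 the repeat lies on the opposite strand, so that the capitals are its complement.
COL11A2: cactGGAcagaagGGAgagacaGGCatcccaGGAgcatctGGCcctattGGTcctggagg
COL17A1: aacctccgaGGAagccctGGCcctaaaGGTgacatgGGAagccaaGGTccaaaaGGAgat
COL1A2: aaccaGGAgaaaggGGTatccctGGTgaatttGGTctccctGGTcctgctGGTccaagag
COL21A1: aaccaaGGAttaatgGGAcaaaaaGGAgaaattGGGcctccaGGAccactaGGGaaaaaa
COL11A1: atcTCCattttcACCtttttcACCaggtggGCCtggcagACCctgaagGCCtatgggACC
COL9A1: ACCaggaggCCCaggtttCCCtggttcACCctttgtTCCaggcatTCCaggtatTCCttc
The first 3 of these probes were well above the local background on all 21 arrays. The COL21A1 probe was so on 0 arrays, COL11A1 on 1 and COL9A1 on 10.

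Of the 113 genes, 36 (31.9%) had a probe well above background on all 21 arrays, 48 on some arrays and 29 on no array. Over all names on the array, 37.8% had such a probe on all arrays. Read by probe, 21.8% of the matrix probes and 39.2% of all probes were well above background on every array, and 34.9% and 20.7% on no array. Detection differed by family. Among these names in capitals, both lysyl oxidases, fibronectin, 3 of 4 TIMPs, and 4 of 6 small proteoglycans, versican and SPARC proteins had a probe detected in every pig. At the other end, 0 of 8 fibrillins, fibulins and LTBPs and 2 of 14 MMPs did. Names in lower or mixed case differed from this. Probes named loxl2 and Loxl4 were well above background on 0 arrays, mmp24 on 10 DD and 11 LW arrays and ltbp3 on 10 and 10. The 7 ADAMs without signal on any array were ADAM2, ADAM3A, ADAM5, ADAM18, ADAM23, ADAM29 and ADAM30, and ADAM2 is a fertilization protein of sperm. Of 8 laminin chains, 5 had no signal on any array, LAMA1, LAMA2 and LAMA4 among them (a probe named Lama2 was well above background on 1 array), whereas LAMB2 and LAMA5 were detected in all pigs. Among the names in capitals, the basement membrane collagens COL4A1, COL4A3, COL4A5 and COL4A6 were removed as dim and COL4A2 was not, while a probe named Col4a1 was kept and not called (adjusted p = 0.4).

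**Figure D1:**
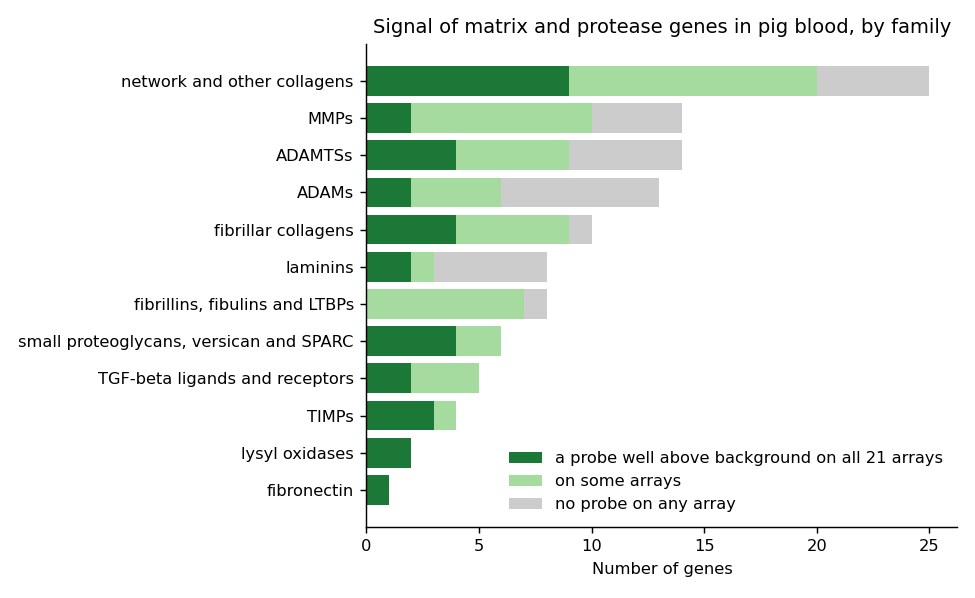
Number of genes of each family (x axis) by whether a probe was well above background on all 21 arrays, on some of them or on none. Network and other collagens have 9 of 25 genes in the first class, ADAMs 2 of 13, and fibrillins, fibulins and LTBPs 0 of 8.

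After removal of the dimmest 25% of all probes, 76 of the 113 genes remained, with 146 probes. Log2 intensities were compared between breeds in limma fits that had a fixed term for chip and a random one for sow, and p-values were Benjamini-Hochberg adjusted over all 34510 names. Of the 76 genes, 17 (22.4%) had an adjusted p below 0.05, where 21.2% of all names did. The share called among the matrix genes was thus close to that of the array. In DD pigs 13 were higher (17.1%, against 11.4% of all names) and 4 were lower (5.26%, against 9.8%). The median log2 FC (DD over LW) was 0.09 over the 76 genes and -0.05 over all names. Among the genes called higher, the log2 FC ran from 0.31 (COL14A1) to 0.92 (ADAMTS17), and the genes called lower were not well above background in DD pigs and allow only bounds. Of those 4, LTBP2 and MMP3 had a DD mean under the lowest mean of a kept probe (3.97) and passed the filter through their LW values, so they are no support for a difference, and 2 lower genes remain without them. The values of the breeds overlapped in all 76 genes, and they did not in 0.374% of all names. Scaling arrays to their 75th percentile instead moved the median of all names to 0.06 and that of these genes to 0.25, and the calls became 18 higher and 0 lower. Cyclic loess gave 19 and 1, re-computed values 15 and 1, and an offset of 50 gave 15 and 0. In the order named, these fits tested 72, 76, 76 and 78 of the matrix genes. They called 20.6%, 19.8%, 21.3% and 22.9% of all names in either direction.

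The DD arrays were dimmer, and this moved with the result. The log2 of the 75th percentile of an array's processed signal, called brightness here, ran from 6.56 to 8.49 (median 7.64) in DD pigs and from 7.37 to 8.62 (median 8.41) in LW pigs. Breed means of brightness were alike on chip 1 (7.95 and 8.02) and apart on chip 2 (7.55 and 8.31) and chip 3 (7.09 and 8.36). On chips 2 and 3 every DD array was dimmer than every LW array, so breed and brightness cannot be told apart there. The 13 genes higher in DD pigs followed the same order. Their median difference was 0.02 on chip 1 (from -0.07 to 0.40), 0.54 on chip 2 (from 0.32 to 1.14) and 0.98 on chip 3 (from 0.42 to 1.74). Over all names the medians were 0.00, -0.02 and -0.11. All 13 fell with brightness when both breed and brightness were in the model, with slopes from -1.35 to -0.30 per log2 unit of brightness and adjusted p below 0.05. Such a fall was called in 31.6% of the 76 genes and in 15.4% of all names, and a rise in 2.63% and 14.5% (either in 29.9% of all names). In this model 0 of the 13 kept an adjusted p below 0.05, where 0.956% of all names were called higher, and their differences lay between -0.03 and 0.17. It called 1 of the 76 genes, ADAMTS19, as lower, and 2.18% of all names (1.23% as lower). At an unadjusted p below 0.05 it had 7 of the 76. With brightness in the model, the upper 95% limits of the 13 differences ran from 0.23 to 0.46, so that differences of that size remained possible.

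**Figure D2:**
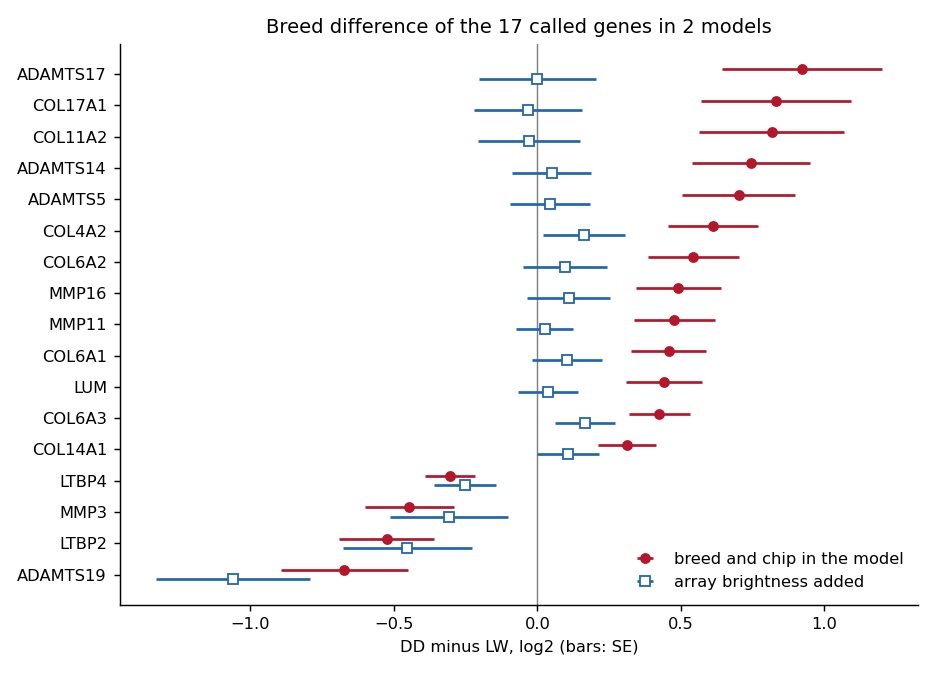
Log2 difference DD minus LW (x axis) of the 17 called genes, with SE bars, from the model with breed and chip (filled circles) and with array brightness added (open squares). The 13 genes higher in DD pigs move to between -0.03 and 0.17, and the 4 lower ones remain below 0.

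**Figure D3:**
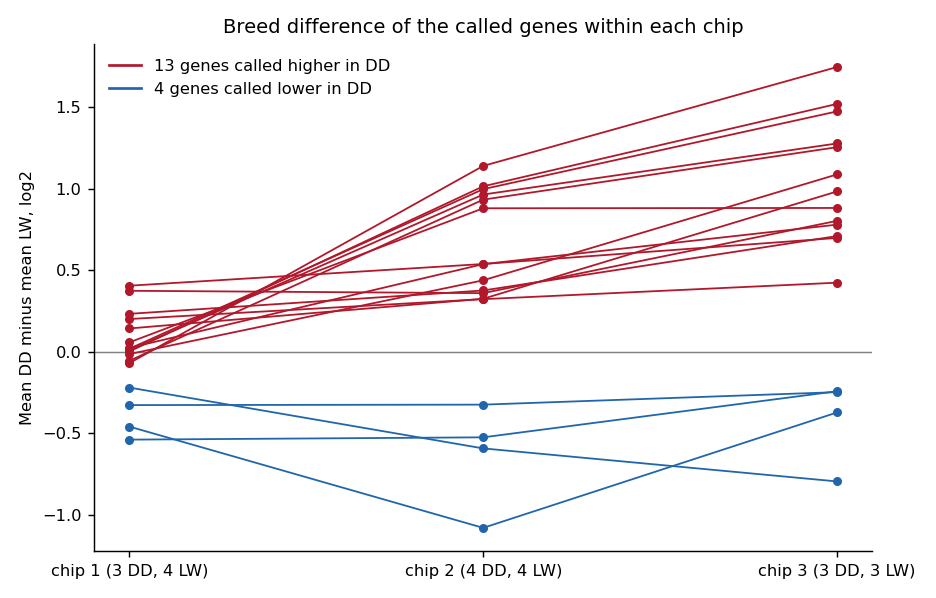
Mean of DD pigs minus mean of LW pigs (y axis, log2) for the 17 called genes within each of the 3 chips (x axis), with 1 line per gene. The 13 genes called higher (red) have a median of 0.02 on chip 1 and 0.98 on chip 3, and the 4 called lower (blue) are below 0 on every chip.

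The counts by family given from here on are small, and 11.4% of all names were called higher and 9.8% lower. Network and associated collagens gave 6 genes higher in DD pigs and 0 lower, out of 19 tested. Collagen VI, a filament that links cells to the matrix, had all of its 3 classical chains among them. COL6A3 ran from 5.02 to 6.09 (median 5.50) in DD pigs and from 4.67 to 5.51 (median 5.18) in LW pigs, with 5 DD pigs above the highest LW pig. Its log2 FC was 0.43 ± 0.11 (SE, limma adjusted p = 0.013), from 3 kept probes of 9. Of the 3, 2 have the same 60 bases and gave 0.59 (called per probe) and 0.42 (not called). The third, well above background in every pig, gave 0.26 and was not called (adjusted p = 0.0603 per probe). A kept probe named Col6a3 was not called either (0.58 ± 0.22, adjusted p = 0.0682). COL6A2 ran from 5.09 to 6.61 (median 5.69) and from 4.17 to 5.70 (median 5.34), and COL6A1 from 5.32 to 7.39 (median 5.93) and from 4.88 to 6.17 (median 5.74). The breeds overlapped in both, with 5 and 3 DD pigs above all LW pigs. Their log2 FC were 0.54 ± 0.16 (adjusted p = 0.0247) and 0.46 ± 0.13 (adjusted p = 0.0234). On chip 1, where mean brightness was alike, COL6A2 was 0.40 higher in DD pigs, COL6A3 0.23 and COL6A1 0.14, which was not tested. With brightness in the model, COL6A3 was 0.17 ± 0.10 higher (limma adjusted p = 0.641). COL6A2 was then 0.10 ± 0.15 higher (adjusted p = 0.948) and COL6A1 0.10 ± 0.12 (adjusted p = 0.91).

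Collagen IV alpha 2, a chain of the basement membrane network (COL4A2, chr11:76996885-77161617 on Sscrofa11.1), was read by 1 probe well above background in every pig. Values ran from 6.63 to 8.82 (median 7.56) in DD pigs and from 6.27 to 7.91 (median 7.18) in LW pigs, and 3 DD pigs were above all LW pigs. The log2 FC of 0.61 ± 0.16 (adjusted p = 0.0144) came from chips 2 and 3, with 0.88 on each, against 0.06 on chip 1. COL17A1, the transmembrane collagen of hemidesmosomes, has 3 probes, of which the repeat probe shown above was well above background on 21 arrays and the others on 0. That probe ran from 11.58 to 13.92 (median 13.09) in DD pigs and from 10.82 to 13.30 (median 12.22) in LW pigs. Its log2 FC was 0.83 ± 0.26 (adjusted p = 0.0311), with 0.00, 1.01 and 1.52 on the 3 chips. A probe filed under another name has the same 60 bases and gave 0.83 as well. COL14A1, a collagen that decorates fibrils, had 9 kept probes and a log2 FC of 0.31 ± 0.10 (adjusted p = 0.0343). Its values ran from 4.72 to 5.50 (median 5.13) in DD pigs and from 4.29 to 5.07 (median 4.76) in LW pigs, with 6 DD pigs above all LW pigs. Of these 9 probes, 2 were well above background in every pig and the other 7 on at most 5 arrays. COL18A1, the source of endostatin, COL7A1 of anchoring fibrils, COL29A1 and COL6A4P2 were detected in all pigs and were not called. They differed by 0.10 ± 0.17 (adjusted p = 0.689), 0.23 ± 0.11 (adjusted p = 0.126), -0.32 ± 0.14 (adjusted p = 0.101) and -0.12 ± 0.09 (adjusted p = 0.381).

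Among the 9 fibrillar collagens tested, 1 was higher and 0 lower. The called gene was COL11A2, a minor chain of cartilage fibrils (chr7:25204496-25234880). It ran from 12.24 to 13.86 (median 13.21) in DD pigs and from 10.99 to 13.86 (median 12.29) in LW pigs, so the highest pigs of both breeds were at the same level. Its log2 FC was 0.82 ± 0.25 (adjusted p = 0.03), with 0.02, 1.00 and 1.47 on the 3 chips and -0.03 ± 0.18 with brightness in the model. The chains of collagens I and III, the bulk of skin and bone, gave no call. COL1A1 differed by -0.01 ± 0.25 (adjusted p = 0.972), COL1A2 by -0.27 ± 0.11 (adjusted p = 0.0934) and COL3A1 by 0.47 ± 0.26 (adjusted p = 0.185). COL1A2 had 3 kept probes, all lower in DD pigs, and 1 of them was called. The repeat probe shown above ran from 8.03 to 9.21 (median 8.71) in DD pigs and from 8.60 to 9.80 (median 8.97) in LW pigs, a difference of -0.43 ± 0.15 (adjusted p = 0.0432 per probe). The other 2 kept probes were well above background on 0 and 3 arrays and differed by -0.055 and -0.32. COL5A2, a chain that sets fibril width, differed by 0.35 ± 0.28 (limma adjusted p = 0.382). With brightness in the model it differed by 0.21 ± 0.38 (adjusted p = 0.966). Its kept probes had differences of both signs. One probe, well above background on all arrays, was 1.13 ± 0.33 higher in DD pigs (adjusted p = 0.023 per probe) and was so on each chip (1.00, 0.94 and 1.52). This probe fell with brightness, with a slope of -1.06. The other 2 probes of COL5A2 were well above background on 1 and 2 arrays and differed by 0.18 and -0.28.

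Of 6 ADAMTS enzymes tested, 3 were higher in DD pigs and 1 was lower. ADAMTS17, which acts on the fibrillin matrix, ran from 9.98 to 12.91 (median 11.47) in DD pigs and from 9.08 to 12.06 (median 10.77) in LW pigs. It had the largest difference of the 76 genes, 0.92 ± 0.28 (adjusted p = 0.0274), and also the steepest fall with brightness, -1.35 ± 0.19. Within chips the difference was -0.07, 1.14 and 1.74. ADAMTS14, a procollagen N-proteinase, ran from 8.53 to 10.76 (median 9.71) and from 8.07 to 10.02 (median 8.98), a log2 FC of 0.74 ± 0.21 (adjusted p = 0.0199). ADAMTS5, the main aggrecanase, ran from 8.28 to 11.18 (median 9.32) and from 7.85 to 9.95 (median 8.73), a log2 FC of 0.70 ± 0.20 (adjusted p = 0.0214). Only 1 of its 3 probes passed the filter, and it is shown because that call rests on it.
ADAMTS5: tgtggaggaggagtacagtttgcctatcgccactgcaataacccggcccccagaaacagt
ADAMTS14 and ADAMTS5 differed by 0.01 and -0.05 on chip 1 and by 1.28 and 1.25 on chip 3. ADAMTS19, a member of the family without a well-defined substrate, went the other way. It ran from 3.17 to 5.45 (median 3.97) in DD pigs and from 3.78 to 5.36 (median 4.65) in LW pigs, and it was well above background on 0 of 10 DD and 3 of 11 LW arrays. For a gene not well above background in a breed only a bound can be given. It sets the mean of the other breed against the lowest signal above background of each array. The bound of ADAMTS19 was 1.37-fold lower in DD pigs (limma adjusted p = 0.0356). Where the other breed is also above background on few arrays, its mean is itself mostly near background. The bound is then not a firm lower limit, as for ADAMTS19 and for MMP3, LTBP2, LTBP4 and nid1 below. It was below on each chip (-0.46, -1.08 and -0.37). The other 8 names of the family in capitals, among them ADAMTS1, ADAMTS2 and ADAMTS8, did not pass the filter on dim probes, and a probe named Adamts13 did and was not called (adjusted p = 0.156).

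**Figure D4:**
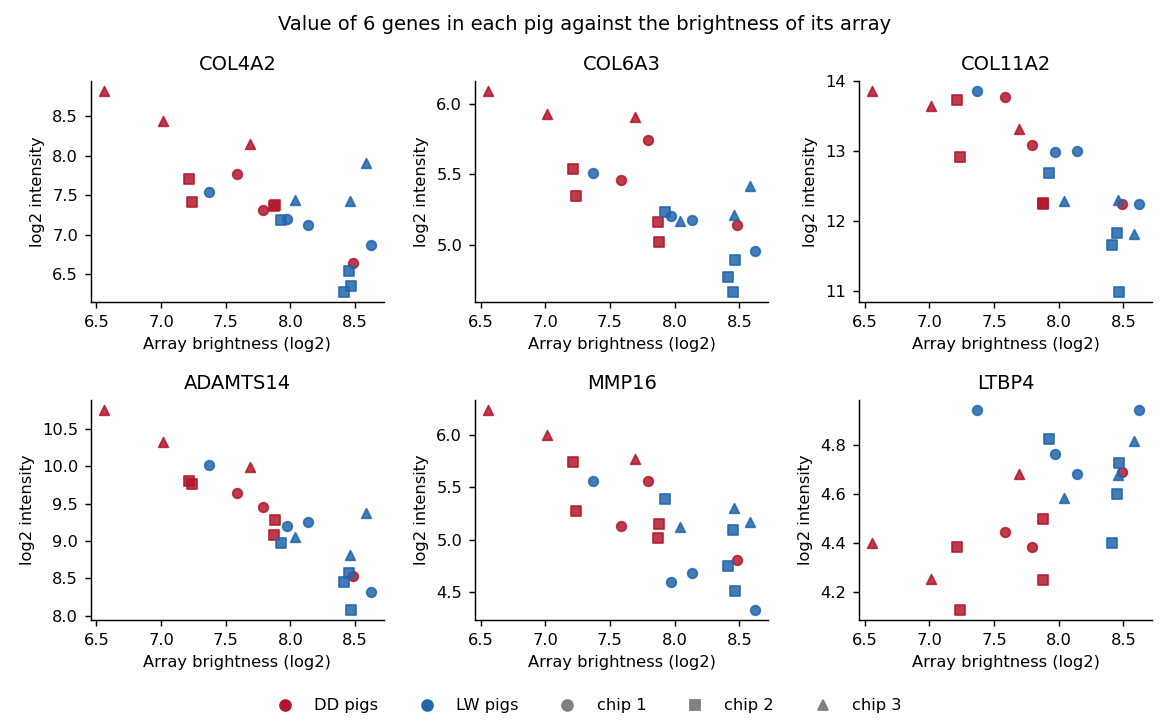
Log2 intensity (y axis) of 6 genes in each pig against the brightness of its array (x axis, log2 of the 75th percentile of processed signal). DD pigs are red, LW pigs blue, and the marker gives the chip. COL4A2, COL6A3, COL11A2, ADAMTS14 and MMP16 have negative slopes on brightness (from -1.24 to -0.38), and LTBP4 has a slope of 0.07.

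Of 8 MMPs tested, 2 were higher and 1 was lower in DD pigs. MMP11, or stromelysin-3, ran from 5.18 to 7.23 (median 5.73) in DD pigs and from 4.95 to 5.93 (median 5.47) in LW pigs, a log2 FC of 0.48 ± 0.14 (adjusted p = 0.0251). Its 6 probes include a pair with the same 60 bases, shown because it measures the repeatability of a probe within an array.
MMP11: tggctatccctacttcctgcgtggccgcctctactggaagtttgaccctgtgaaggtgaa
The copies differed by 0.16 log2 units on average and by at most 0.66 in a pig, and gave breed differences of 0.80 and 0.83. The other 4 probes of MMP11 gave from 0.05 to 0.59. MMP16, a membrane-bound MMP, ran from 4.81 to 6.24 (median 5.42) in DD pigs and from 4.33 to 5.56 (median 5.09) in LW pigs. It was well above background on 8 DD and 7 LW arrays. Its log2 FC was 0.49 ± 0.15 (adjusted p = 0.027), and DD pigs were higher on each chip (0.37, 0.36 and 0.80). The call rests on 1 probe, and the kept probe named mmp16 differed by 0.04 ± 0.15 (adjusted p = 0.857), and by -0.22 ± 0.18 with brightness in the model. MMP3, or stromelysin-1, ran from 2.74 to 4.44 (median 3.87) and from 3.80 to 5.15 (median 4.13). It was well above background on 0 DD arrays and 1 LW array, and the bound was 1.10-fold lower in DD pigs (adjusted p = 0.0443). The DD mean of 3.75 lay under the filter on dim probes, which MMP3 passed through its LW mean of 4.22. Its probe shares 43 bases with a probe of its neighbour MMP10, so the 2 genes may not be told apart. MMP19 (0.42 ± 0.15, adjusted p = 0.0549) and MMP14 (0.41 ± 0.17, adjusted p = 0.087) did not pass the test. The gelatinase MMP2 differed by -0.27 ± 0.21 (adjusted p = 0.36).

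Of 3 TIMPs tested, the inhibitors of these enzymes, 0 were called by limma and 0 had an unadjusted p below 0.05. TIMP1, carried by platelets and leukocytes, was well above background in every pig with all 4 probes. It ran from 7.54 to 9.60 (median 9.10) in DD pigs and from 8.04 to 9.42 (median 8.86) in LW pigs, a log2 FC of 0.09 ± 0.20 (adjusted p = 0.778). TIMP2 ran from 7.65 to 11.10 (median 10.12) and from 8.27 to 10.80 (median 9.83), a log2 FC of 0.15 ± 0.31 (adjusted p = 0.752). Both spread over more than 1 log2 unit in each breed, far more than the breeds differed. TIMP3, which binds to the matrix itself, had a log2 FC of 0.40 ± 0.27 (adjusted p = 0.3). Its 2 probes disagreed, although both were well above background in all pigs. The probe shown here was 0.98 ± 0.30 higher in DD pigs (adjusted p = 0.0288 per probe) and the other differed by -0.18.
TIMP3: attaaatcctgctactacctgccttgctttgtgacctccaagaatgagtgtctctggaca
A probe filed under another name with these 60 bases gave 0.97. On the 3 chips the shown probe differed by -0.02, 1.18 and 1.84, and by -0.04 ± 0.20 with brightness in the model.

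Of 6 ADAMs tested, 0 were called by limma and 1, ADAM28, had an unadjusted p below 0.05. ADAM8, a sheddase of neutrophils and monocytes, ran from 9.51 to 10.32 (median 9.97) in DD pigs and from 9.51 to 10.51 (median 10.13) in LW pigs, a log2 FC of -0.16 ± 0.11 (adjusted p = 0.316). ADAM10 differed by -0.25 ± 0.14 (adjusted p = 0.19) and ADAM28, a lymphocyte ADAM, by 0.51 ± 0.18 (adjusted p = 0.0512). ADAM17, the enzyme that releases TNF-alpha, differed by -0.24 ± 0.15 (adjusted p = 0.246) as a mean of 5 probes. One of the 5, which starts at base 929 of the transcript, stood apart. It ran from 4.40 to 7.02 (median 6.38) in DD pigs and from 6.43 to 8.31 (median 7.86) in LW pigs, a difference of -1.30 ± 0.28 (adjusted p = 0.0042 per probe). The difference was below 0 on each chip (-0.62, -1.18 and -2.26), and with brightness in the model it was -0.79 ± 0.33 (adjusted p = 0.304). The other 4 differed by -0.12 to 0.14. That probe and one of the others are shown.
ADAM17, base 929: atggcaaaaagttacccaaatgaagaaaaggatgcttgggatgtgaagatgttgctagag
ADAM17, other probe: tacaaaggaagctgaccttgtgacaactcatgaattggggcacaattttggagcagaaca

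**Figure D5:**
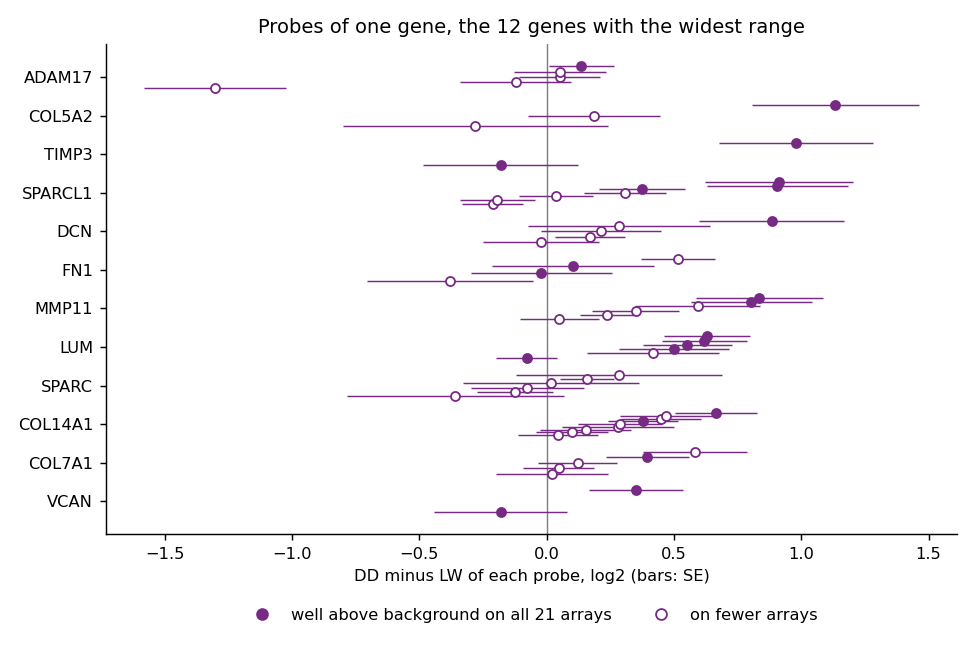
Log2 difference DD minus LW of each kept probe (x axis, SE bars) for the 12 genes whose probes range most widely. Filled points were well above background on all 21 arrays and open points on fewer. One ADAM17 probe lies at -1.30 while the other 4 lie between -0.12 and 0.14, and the TIMP3 probes lie at 0.98 and -0.18.

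Disagreement of this kind was common. Of 30 genes with several kept probes, 13 had differences of both signs and 12 a range over 0.5 log2 units. Per probe, 25 of 146 were called higher and 6 lower (21.2%, against 21.7% of all kept probes). With brightness in the model 1 of 146, that of ADAMTS19, was called, and it was lower (2.31% of all kept probes were called, 1.33% as lower). The small proteoglycan decorin (DCN), which binds collagen fibrils and TGF-beta, had 1 probe well above background in all pigs at 0.88 and 4 on at most 11 arrays from -0.02 to 0.28. SPARCL1, an anti-adhesive relative of SPARC, had an overlapping pair at 0.91 each and 5 other probes from -0.21 to 0.37. Lumican (LUM), a regulator of fibril spacing, was the called gene of this family, with a log2 FC of 0.44 ± 0.13 (adjusted p = 0.0268). It ran from 7.42 to 8.73 (median 7.95) in DD pigs and from 7.10 to 8.13 (median 7.60) in LW pigs. Of its 6 kept probes, 5 hold a run of at least 14 alternating C and A bases or their complement, present in 0.119% of all probes. The 3 called probes are among these 5 and share bases with one another, and they differed by 0.55 to 0.63. Another of the 5, with a run of 16 bases and well above background in all pigs, differed by -0.08 ± 0.12 (adjusted p = 0.665 per probe). All 5 share at least 20 bases with the opposite strand of probes of other names.

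Of the 6 fibrillins, fibulins and latent TGF-beta binding proteins tested, 2 were lower in DD pigs and 0 higher. LTBP4, which holds latent TGF-beta and helps to build elastic fibres, ran from 4.13 to 4.69 (median 4.39) in DD pigs and from 4.40 to 4.94 (median 4.73) in LW pigs, with 5 DD pigs below all LW pigs. It was well above background on 0 DD and 5 LW arrays, with a bound of 1.23-fold lower (adjusted p = 0.0238). The chips agreed (-0.33, -0.32 and -0.25). LTBP2, which sits on fibrillin microfibrils, ran from 3.17 to 4.52 (median 3.96) and from 3.89 to 5.13 (median 4.31). It was well above background on 0 DD and 3 LW arrays, with a bound of 1.20-fold lower (adjusted p = 0.0312). LTBP2 passed the filter on dim probes through its LW mean of 4.36, with a DD mean of 3.84. A probe under another name that shares 57 of the 60 bases gave -0.80 ± 0.18 (adjusted p = 0.00681 per probe). That probe had a mean of 4.01 and was well above background on 4 arrays. Being nearly the same probe, it is no separate support for LTBP2. Neither gene fell with brightness (slopes of 0.07 ± 0.10 and 0.11 ± 0.21), and with brightness in the model their fitted differences were -0.25 ± 0.11 (adjusted p = 0.327) and -0.45 ± 0.22 (adjusted p = 0.45), against -0.30 and -0.53 without it. FBLN1, a fibulin of plasma and vessel walls, differed by -0.26 ± 0.21 (adjusted p = 0.363). The kept probe of FBN1 was not well above background on any array.

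Fibronectin (FN1), the glycoprotein of plasma and of the provisional matrix, ran from 5.50 to 6.81 (median 6.03) in DD pigs and from 5.14 to 6.97 (median 6.08) in LW pigs. Its log2 FC was 0.05 ± 0.22 (adjusted p = 0.874), a mean of chips that differed in sign (0.54, 0.07 and -0.50). Of 4 laminins tested, 0 were called by limma and 0 had an unadjusted p below 0.05. LAMB2 differed by -0.10 ± 0.10 (adjusted p = 0.485) and LAMA5 by 0.22 ± 0.15 (adjusted p = 0.294). A further laminin chain, LAMB3 of an epithelial laminin, is read by a probe that the scanner files name by a transcript and describe as laminin beta 3, so that the name rule did not take it. This probe ran from 3.27 to 5.28 (median 4.72) in DD pigs and from 5.39 to 8.01 (median 6.74) in LW pigs, and the breeds did not overlap. It was well above background on 3 of 10 DD and 11 of 11 LW arrays. The log2 FC was -2.15 ± 0.25 (adjusted p = 9.0e-06), with -1.47, -1.76 and -3.46 on the chips, and it was -1.65 ± 0.30 with brightness in the model (adjusted p = 0.00398). The only probe named Lamb3 was well above background on 1 of 21 arrays and could not be compared.

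TGF-beta, the cytokine that drives matrix deposition, was detected through its ligand TGFB1 and its receptor TGFBR1 in all pigs. TGFB1 ran from 8.42 to 10.50 (median 9.78) in DD pigs and from 8.38 to 10.67 (median 9.76) in LW pigs, a log2 FC of -0.08 ± 0.22 (adjusted p = 0.825), with chips of opposite sign (0.34, -0.62 and 0.19). TGFBR1 differed by -0.05 ± 0.13 (adjusted p = 0.815). Versican (VCAN), a large proteoglycan made by monocytes, ran from 6.86 to 8.49 (median 8.13) and from 6.90 to 8.39 (median 7.88) and differed by 0.08 ± 0.21 (adjusted p = 0.8). Of 4 TGF-beta ligands and receptors tested, 0 were called by limma and 0 had an unadjusted p below 0.05. The 2 lysyl oxidases, which crosslink collagen and elastin, gave 0 calls and 1 unadjusted p below 0.05, that of LOX. LOX ran from 12.25 to 14.26 (median 13.02) in DD pigs and from 11.60 to 14.59 (median 12.75) in LW pigs, a log2 FC of 0.48 ± 0.18 (adjusted p = 0.0575). A single LOX probe carries this value, and the other 2 were well above background on 0 and 1 arrays. COL4A3BP, a ceramide transporter that the name pattern catches without its being a collagen, differed by 0.09 ± 0.13 (adjusted p = 0.653).

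Variation among pigs of one breed was larger than most breed differences. With chip removed, the SD within breeds had a median of 0.40 over the 76 genes, where it was 0.37 over all names, and ran from 0.16 to 0.82. The 5 most variable genes were TIMP2 (0.82), ADAMTS17 (0.74), COL5A2 (0.74), TIMP3 (0.73) and COL17A1 (0.69). TIMP2 varied more among DD pigs (SD 0.93) than among LW pigs (SD 0.61), which was not tested. The SD of COL5A2 in LW pigs (0.83, against 0.52 in DD pigs) rested on LW pig 24, at 8.99 where the other LW pigs reached at most 6.41, and it was 0.31 without that pig. LTBP4 had the lowest SD.

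The scanner files hold 31 further names of these families in lower or mixed case, which the rule did not take. Of these, 19 passed the filter and 8 were called (21.2% of all names were). Tgfbr3, or betaglycan, the TGF-beta co-receptor, differed by -0.92 ± 0.14 (adjusted p = 0.000207). The binding protein ltbp3, which holds latent TGF-beta, was 0.77 ± 0.13 higher (adjusted p = 0.00046). The bound of nid1, the basement membrane linker nidogen, was 2.03-fold higher (adjusted p = 0.00923). The nid1 probe was well above background on 4 DD and 0 LW arrays and passed the filter on dim probes through its DD mean of 4.92, with an LW mean of 3.58. Its call is therefore no support for a difference, with or without brightness in the model. Tgfbr3, ltbp3 and nid1 had an adjusted p below 0.05 with brightness in the model (0.00974, 0.0242 and 0.0306), where 2.18% of all names were called. The other 5, mmp15, adam19, col10a1, col14a1 and mmp24, did not.

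Other genes of matrix biology were read from 5 lists, against 11.4% of all names called higher and 9.8% called lower. Among 13 genes of collagen processing tested, 2 were higher and 1 lower. SLC39A13, a zinc transporter needed for collagen modification, was 0.83 ± 0.11 higher in DD pigs (adjusted p = 2.81e-05) and P4HB, a subunit of prolyl hydroxylase, differed by -0.32 ± 0.11 (adjusted p = 0.0435). Of 21 matricellular and other matrix genes, 5 were higher, with PRELP, a leucine-rich proteoglycan, at 0.89 ± 0.26 (adjusted p = 0.0234). The only one lower was HAS3, a hyaluronan synthase, at -0.53 ± 0.13 (adjusted p = 0.0129), well above background on at most 1 DD and 8 LW arrays. Of 15 activators and inhibitors of proteases, 0 were higher and 4 lower, with the cysteine protease inhibitor CST3 at -0.94 ± 0.26 (adjusted p = 0.0199). Of 16 genes of TGF-beta signalling, 3 were higher and 0 lower, with the pseudoreceptor BAMBI at 1.21 ± 0.14 (adjusted p = 4.71e-06). Of 12 matrix receptors, 2 were higher, with CD36, a thrombospondin receptor, at 0.78 ± 0.17 (adjusted p = 0.00546), and 2 lower, with the syndecan SDC2 at -0.95 ± 0.12 (adjusted p = 2.94e-05). SDC2 was well above background on at most 3 DD and 10 LW arrays, with a DD mean of 4.21, so its size is uncertain. The medians of the lists ran from -0.03 to 0.13. With brightness in the model, 6 genes of the 5 lists had an adjusted p below 0.05, where 2.18% of all names did (0.956% higher and 1.23% lower). These were BAMBI (1.38), SLC39A13 (0.61), SDC2 (-0.96), the TGF-beta co-receptor ENG (1.24 ± 0.29, adjusted p = 0.0228), osteopontin SPP1 (0.70 ± 0.17, adjusted p = 0.033) and heparanase HPSE (adjusted p = 0.00454), which was well above background on 0 DD arrays and at least 1.62-fold lower in DD pigs without brightness in the model. SPP1 was well above background on at most 8 DD and 6 LW arrays. The other genes named from the lists did not pass, with PRELP at 0.0069, P4HB at -0.078, HAS3 at -0.18, CD36 at 0.36 and CST3 at -0.76 ± 0.35.

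Markers of blood cells were present in both breeds, and their calls are read against the same 11.4% and 9.8% of all names. Calls with brightness in the model are read against 0.956% of all names called higher and 1.23% called lower. Of 10 platelet markers tested, 9 were well above background in all pigs, and CD9 was higher (0.65 ± 0.14) and PPBP lower (-0.94 ± 0.32). Mean platelet marker levels ran from 8.64 to 10.12 in DD pigs and from 8.94 to 10.19 in LW pigs. PPBP with brightness in the model differed by -1.94 ± 0.27 (adjusted p = 0.000361). Of 12 erythroid markers, 4 were higher and 0 lower, with mean levels from 10.01 to 11.36 and from 9.77 to 10.94. Of 12 T cell markers, 0 were higher and 4 lower, all 12 differences were below 0 (median -0.44), and mean levels ran from 7.69 to 9.17 and from 7.95 to 9.27. No call of an erythroid or T cell marker (0 and 0) was kept with brightness in the model. Monocyte markers gave 1 higher and 2 lower of 8, granulocyte markers 1 and 0 of 9, B cell markers 0 and 0 of 7, and cytotoxic cell markers 0 and 0 of 9 by limma. At an unadjusted p below 0.05 the B cell and cytotoxic lists had 0 and 1. Fibroblast markers gave 1 higher (PI16) and 1 lower (S100A4, which leukocytes also express) of 4 tested, with mean levels from 8.84 to 9.18 and from 8.68 to 9.05. THY1 was the fibroblast marker called with brightness in the model (0.79 ± 0.20, adjusted p = 0.0441). Of 6 endothelial markers, VWF, PECAM1 and CLDN5 were well above background in all pigs and KDR on 0 arrays, and ERG was higher (0.64 ± 0.20, adjusted p = 0.0287). Of 6 smooth muscle markers, ACTA2 was lower (-0.62 ± 0.19, adjusted p = 0.0309). TAGLN, well above background on 0 DD and 7 LW arrays, had a bound of 3.23-fold lower (adjusted p = 0.00913). It passed the filter on dim probes through its LW mean of 5.83, with a DD mean of 3.73, so its call is no support for a difference. With brightness in the model neither was called (adjusted p = 0.11 and 0.225), and CNN1 was called lower (-1.18 ± 0.23, adjusted p = 0.00835). The part of blood cell composition in the matrix differences was not tested.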

How the data were processed

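RNA from whole blood (10 DD, 11 LW) was hybridized to custom Agilent pig arrays in one colour. The authors processed 24 samples on 3 chips and removed 3 outlier arrays, and they noted a technical bias on the last chip. The deposited scanner files give intensity values, made with Agilent Feature Extraction 10.7.3.1 per the labels, and flags for a signal well above background that the authors' software set. The deposited log2 matrix was background corrected (normexp) and quantile normalized by the authors. It was used as deposited, with 0 columns left unassigned.

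Probes were named by the scanner files, and 3 hyphenated names were merged with their plain form. The 25% of probes with the lowest mean were removed and kept probes of a name averaged. Breeds were compared with limma 3.58.1 in R 4.3.3 (lmFit, duplicateCorrelation on sow, eBayes with statmod 1.5.0), chip being a fixed effect, with Benjamini-Hochberg adjustment over 34510 names and a threshold of 0.05. The consensus correlation was -0.11. Without the sow block 14 of the 76 genes and 14.6% of all names were called, against 17 and 21.2% with it. Steps were tested on simulated data. Brightness was taken from the upper quartile of processed signal on the log2 scale. No probe was saturated (0), and 44.7% to 63.8% of probes per array passed the flag. No 2 arrays held identical values (0 pairs).

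Genes named are all called ones, the gene with the highest mean in each family, the 5 with the largest SD within breeds, LAMB3, and the called gene with the largest difference each way in each list. Other genes, among them TIMP1, COL1A1, COL3A1, ADAM10, ADAM17, ADAM28, MMP2, MMP14, DCN and SPARCL1, and all single probes were named after their values were seen. The genes and lists were chosen with earlier results of these data known. Alternatives were other background corrections, scalings, filters and probe summaries, no sow or chip term, litter means, chip as a random block, each chip or pig left out, brightness as a covariate, eBayes with trend and robust fitting and, chosen after seeing the data, adjustment over RefSeq symbols only and brightness in the fit per probe. Coordinates are those of RefSeq on Sscrofa11.1. Where the probes lie in the genome was not analysed here.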

Additional observations from a re-analysis of the deposited data

Results flagged for a closer look

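In the 10 DD pigs, 76 genes were examined for a pig far from the others, using Dixon's ratio of the gap to the next pig and the whole range of the DD values. Chance flags about 1 in 20 such groups, and 4 were found. ADAM17 was 4.98 in DD pig 21 and 5.99 in the next, and the array of that pig was the dimmest. MMP23B was 5.02 in the same pig and 4.28 in the next, on a probe well above background on 0 DD arrays. COL1A2 was 6.26 in DD pig 8 and 5.73 in the next. TGFBRAP1 was 3.35 in DD pig 16 and 4.42 in the next.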

How the results depend on the processing

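No paired analysis was possible because the breeds share no replicate numbers and no sow. The number of genes called higher (13) was 8 without a filter on dim probes, 20 with a filter on signal well above background, 4 with chip as a random block, 5 without chip 2, and 0 with litter means, no chip term, without chip 3 or with brightness as a covariate. The number called lower (4) was 2 without the sow block, 1 with re-computed values, cyclic loess, no filter, the filter on signal well above background, chip as a random block, without chip 1, without chip 2 or with brightness, and 0 with an offset of 50, scaling to the 75th percentile, litter means, no chip term or without chip 3. At an unadjusted p below 0.05, where the main model had 28 genes (36.8%, as of all names), litter means had 20, no chip term 21, no chip 3 had 9 and brightness 7. The count of all genes called (7311 names) was 4587 without filter, 952 with litter means, 1922 without chip term, 3295 with chip as a random block, 526 without chip 3, 753 with brightness and 1960 of 8016 RefSeq symbols. The filter on signal well above background called 21 of 56 matrix genes, where it called 31.1% of all names. All names were called in 14.7% without chip 2 and in 22.6% without chip 1, against 21.2% in the main model. With 1 pig left out, genes called higher ranged from 6 to 19, lower from 1 to 5 and all names from 3759 to 9855. The total of 17 became 9 without DD pig 21, 10 without LW pig 5, 7 without LW pig 12, 8 without LW pig 18, 9 without LW pig 22 and 11 without LW pig 24. With brightness the sign turned in ADAMTS17 (-0.00064), COL11A2 (-0.029) and COL17A1 (-0.031), and with the probe of the highest mean in LUM (-0.078). The other settings left each called gene in its direction. COL4A2, COL6A3, ADAMTS14, ADAMTS5 and LTBP4 kept their call in all 21 fits without a pig, and MMP3 in 5. LAMB3 was past the threshold in all 37 other fits, from -2.64 to -1.11. The genes called lower lie near background, which limits their values to bounds. The fit of litter means also had no chip term, so it changed both the averaging and the chip correction. The cause of these changes was not tested, other than that each left-out chip or litter mean has fewer arrays.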
